A study of Mus musculus with 18 samples.

Results

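The dual-specificity phosphatases of the MAP kinase phosphatase group and the Sprouty and Spred proteins are brakes on growth factor signalling. Levels of 10 of these genes were followed in mouse embryonic fibroblasts before and after TGF-β1. They comprised 6 phosphatase genes (Dusp1, Dusp4, Dusp5, Dusp6, Dusp8 and Dusp10) and 4 genes of the Sprouty and Spred group (Spry1, Spry2, Spry4 and Spred1), out of 18194 genes named on the array. The genes were taken by name. Every probe set whose only gene symbol in the array annotation was one of the 10 names was read, which gave 24 of 45101 probe sets, and each gene was led by its brightest probe set over the 18 arrays.

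MAP kinase phosphatases remove phosphate from the threonine and the tyrosine in the activation loop of ERK, JNK and p38 and so switch these kinases off. Sprouty and Spred proteins act upstream, where they hold back the signal from receptor tyrosine kinases to RAS and RAF. Many of these genes are transcribed in response to ERK activity, which makes them negative feedback regulators of the pathway. TGF-β1 signals mainly through SMAD proteins, and in fibroblasts it can also act on MAP kinases.

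The cells were primary fibroblasts of 14-day mouse embryos, prepared from the tissue that remained once head and liver had been taken off. The genotype of 3 embryos was wild type, and that of the other 3 was given as knock-out for NFI-C, a transcription factor of the nuclear factor I family. Cells of every embryo first stood for some hours in DMEM with AlbuMAX II and a mix of insulin, transferrin and selenium. A first culture then got no treatment, another got 12.5 ng/ml TGF-β1 for 1 h, aimed at immediate effects, and another got it for 10 h, aimed at delayed ones. Each embryo and condition had 1 array, so 6 groups held 3 arrays each. All groups shared the medium with insulin, itself a ligand of a receptor tyrosine kinase, and an untreated culture of 10 h was not analysed here. Each 10 h difference therefore joins TGF-β1 and time in culture. How the knock-out allele was made is not given in the labels.

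The values are log2 levels, for which 1 unit is a doubling, and a change is a difference of group means on that scale with its standard error. The level of Nfic in the knock-out-labelled arrays differed from wild type by -0.10 ± 0.16 without TGF-β1, by -0.02 ± 0.16 after 1 h of it and by -0.09 ± 0.16 after 10 h, so the brightest Nfic probe set did not show the genotype. The other 4 Nfic probe sets had group means of 4.90 to 6.75 in wild type and 4.92 to 6.63 in knock-out-labelled cells, and 1 of the 4 was lower on average in all 3 conditions. Where its probes lie relative to the deleted part is not known here, and the genotype is therefore given as labelled throughout. Smad7, a direct SMAD target, rose by 1.88 ± 0.10 in wild type and by 1.71 ± 0.10 in knock-out-labelled cells at 1 h. All 10 fibroblast markers examined (Col1a1, Col3a1, Pdgfrb and others) passed the filter on dim probe sets, with a summed log2 level between 16.3 and 16.4 in every group. Their mean log2 level was lower at 10 h, 11.83 to 12.04 untreated against 11.33 to 11.54 in wild type and 11.51 to 11.84 against 11.23 to 11.51 in knock-out-labelled cells. Pdgfra fell at 10 h in both genotypes (-2.48 ± 0.29 and -2.57 ± 0.29) and Lum in wild type (-1.34 ± 0.39), the only 2 of the 10 called then, and their part in the results was not tested. All 11 macrophage markers (Lyz2, Csf1r, Adgre1 and others) passed too, with a summed log2 level of 12.7 to 14.9 that was highest for embryo 1 of both genotypes. The median difference of these 11, knock-out-labelled minus wild type, was -0.73 untreated, -0.71 at 1 h and -0.51 at 10 h. None of the 11 was called in these comparisons, and their part in the comparison of genotypes was not tested. The summed log2 level of the muscle list was 8.91 to 9.30 in untreated and 10.5 to 11.1 in 10 h wild-type cells, although Myod1, Myog and Myf5 stayed below the filter, and that of the neural and glial list was 9.02 to 9.38 and 10.5 to 10.9. Of the endothelial list 2 of 6 and of the epithelial list 4 of 6 genes passed. The sums of the muscle and the neural and glial lists thus stood higher at 10 h, in wild type as in knock-out-labelled cells (8.85 to 9.61 and 10.5 to 11.1 for the muscle list). They add linear levels, so the brightest gene weighs most, Acta1 (8.07 to 11.03 over the 18 arrays) and Nes (8.43 to 10.69). Of 3 tested muscle genes, 2 were called higher at 10 h in wild type and 1 in knock-out-labelled cells. Of 3 tested neural and glial genes, 1 was called higher in each. The epithelial sum stood higher at 10 h too, at 7.43 to 7.77 against 7.31 to 7.39 untreated in wild type. In knock-out-labelled cells it was 7.60 to 7.71 against 7.41 to 7.48. Of 4 tested epithelial genes, 2 were called higher at 10 h in wild type and 1 in knock-out-labelled cells. The part of these lists in the results was not tested. In bulk cells, a change in the share of a cell type and a change in RNA per cell cannot be told apart. The 10 h arrays of wild-type embryos 2 and 3 deviated from their group mean unlike the untreated arrays of the same embryos (correlation over genes -0.06 and -0.20, against 0.28 to 0.49 for the other 4 embryos), and results without each of them are given where they change.

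All 10 genes passed the filter, which asked 3 or more arrays to exceed their own 40th percentile. A difference is named as called where its limma p, adjusted over all 13679 tested genes, was under 0.05. After 1 h of TGF-β1, 0 of 10 were called in wild type and 0 of 10 in knock-out-labelled cells, beside 0.585% and 0.49% of all tested genes. After 10 h, 5 of 10 were called in wild type and 6 of 10 in knock-out-labelled cells, beside 33.7% and 34.7% of all tested genes. Dusp4, Dusp5 and Dusp6 showed the largest changes among them, between 2.17 and 3.28 on the log2 scale, while Spry2 fell. No difference between the genotypes was called for any of the 10.

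**Figure D1:**
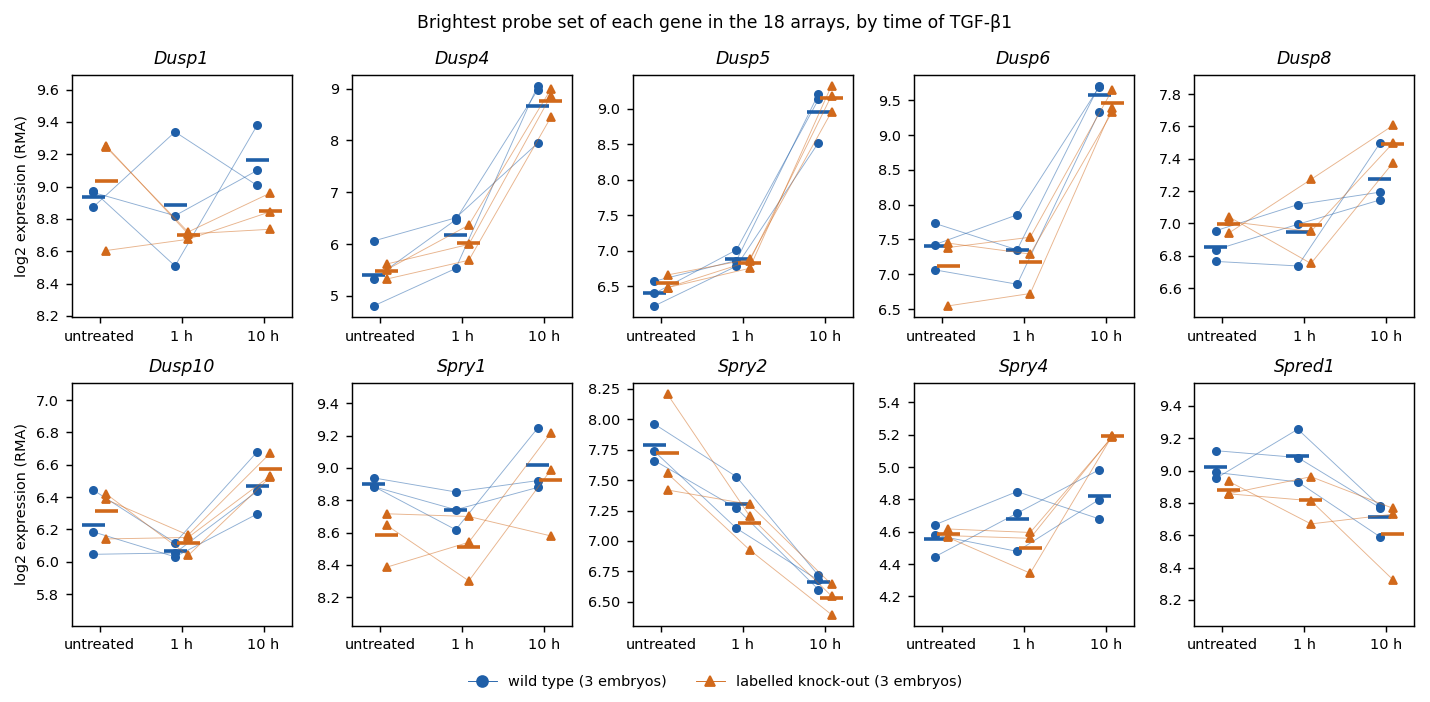
Log2 level of the brightest probe set of each of the 10 genes (vertical axis) on each of the 18 arrays, grouped by condition (untreated, 1 h and 10 h of TGF-β1) and genotype. Points are single arrays, thin lines join the arrays of an embryo, horizontal bars are means of 3 embryos, and each panel has its own axis range. The 10 h points of Dusp4, Dusp5 and Dusp6 lie above all untreated and 1 h points, and those of Spry2 lie below all untreated points.

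Dusp5 is a nuclear phosphatase that is selective for ERK. Its promoter, the 250 bases upstream of the RefSeq start on the plus strand of chr19:53528895-53529144 (build GRCm38.p6), lies before the transcript and is shown because it holds a pair of adjacent CArG boxes, the letters bound by serum response factor. They are the runs in capitals, which stand 82 to 73 and 72 to 63 bases before the start.
Dusp5: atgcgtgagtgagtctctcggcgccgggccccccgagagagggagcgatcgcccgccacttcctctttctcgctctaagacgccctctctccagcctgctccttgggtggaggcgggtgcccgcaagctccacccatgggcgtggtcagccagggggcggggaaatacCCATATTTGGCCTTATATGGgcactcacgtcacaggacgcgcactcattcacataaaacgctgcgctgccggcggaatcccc
A CArG box on either strand was found in 1.47% of 32851 promoters of that length. The match is a description of the letters and not of binding.

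In wild-type embryos 1, 2 and 3 the log2 level of Dusp5 was 6.40, 6.57 and 6.22 untreated, 7.01, 6.86 and 6.78 at 1 h and 9.13, 9.21 and 8.52 at 10 h. The knock-out-labelled cells gave 6.48, 6.66 and 6.48 untreated, 6.75, 6.88 and 6.85 at 1 h and 9.33, 8.96 and 9.19 at 10 h. The 1 h arrays of both genotypes lay just above their untreated arrays, and the 10 h arrays lay far above both without overlap. At 10 h Dusp5 had risen by 2.56 ± 0.15 in wild type, 5.89-fold (limma adjusted p = 1.2e-08), and by 2.62 ± 0.15 in knock-out-labelled cells (limma adjusted p = 9.3e-09). At 1 h the change was 0.49 ± 0.15 and 0.29 ± 0.15 (limma adjusted p = 0.346 and 1.00), which was not called. Most of the rise thus fell between 1 h and 10 h, where it amounted to 2.07 ± 0.15 in wild type and 2.33 ± 0.15 in knock-out-labelled cells.

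Dusp6 is a cytoplasmic phosphatase that is selective for ERK and is widely used as a readout of ERK activity. Its promoter on the plus strand of chr10:99262981-99263230 (GRCm38.p6, the 250 bases upstream of the start) is shown for comparison with Dusp5, because both genes rose late and together.
Dusp6: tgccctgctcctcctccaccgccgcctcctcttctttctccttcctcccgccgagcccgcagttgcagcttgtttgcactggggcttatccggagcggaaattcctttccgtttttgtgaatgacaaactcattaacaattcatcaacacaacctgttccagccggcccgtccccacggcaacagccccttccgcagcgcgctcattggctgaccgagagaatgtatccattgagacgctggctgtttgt
None of the motifs searched was found in these bases, so no letter is in capitals, and a missing match says only that those letters are not in this window.

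The log2 level of Dusp6 was 7.43, 7.73 and 7.06 untreated, 7.85, 7.35 and 6.86 at 1 h and 9.69, 9.71 and 9.33 at 10 h in wild type. Levels in knock-out-labelled cells were 7.38, 7.45 and 6.55 untreated, 7.53, 7.29 and 6.72 at 1 h and 9.65, 9.33 and 9.39 at 10 h. Untreated and 1 h arrays overlapped in both genotypes, and every 10 h array lay above them by more than 1 log2 unit. The 10 h rise was 2.17 ± 0.28 in wild type, 4.5-fold (limma adjusted p = 2.4e-05), and 2.33 ± 0.28 in knock-out-labelled cells (limma adjusted p = 1.1e-05). The 1 h difference was -0.05 ± 0.28 in wild type and 0.06 ± 0.28 in knock-out-labelled cells, with 95% confidence intervals of -0.64 to 0.54 and -0.53 to 0.65. Within embryos the 1 h level was above the untreated level in 3 and below it in 3. Embryo 3 of both genotypes had the lowest untreated and 1 h level.

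Dusp4 is a nuclear phosphatase that acts on ERK and also on JNK and p38. Its log2 level was 5.33, 6.06 and 4.81 untreated, 6.47, 6.51 and 5.53 at 1 h and 8.98, 7.95 and 9.06 at 10 h in wild type. Knock-out-labelled embryos 1, 2 and 3 gave 5.62, 5.51 and 5.33 untreated, 6.00, 6.37 and 5.69 at 1 h and 8.86, 8.99 and 8.45 at 10 h. The wild-type embryos spread widely, with a standard deviation of 0.63 in untreated cells, and still no 10 h array of either genotype came near an untreated or 1 h array. The rise at 10 h was 3.26 ± 0.34, 9.59-fold (limma adjusted p = 3.1e-06), in wild type and 3.28 ± 0.34, 9.72-fold (limma adjusted p = 3.0e-06), in knock-out-labelled cells. In wild type it was 3.95 without embryo 2, whose 10 h level was the lowest, and 2.77 without embryo 3. At 1 h Dusp4 stood higher than in untreated cells in 6 of 6 embryos, by 0.36 to 1.14. The group differences of 0.77 ± 0.34 and 0.53 ± 0.34 were not called (limma adjusted p = 0.687 and 1.00).

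Dusp1 is a nuclear phosphatase that prefers p38 and JNK and is known as an early gene of many stimuli. Its promoter on the minus strand of chr17:26508473-26508722 (GRCm38.p6, the 250 bases upstream of the start) is shown because it holds a cAMP response element, TGACGTCA, and the SMAD-type letters CAGACA, read here on the other strand as TGTCTG, both in capitals. They stand 143 to 136 and 122 to 117 bases before the start.
Dusp1: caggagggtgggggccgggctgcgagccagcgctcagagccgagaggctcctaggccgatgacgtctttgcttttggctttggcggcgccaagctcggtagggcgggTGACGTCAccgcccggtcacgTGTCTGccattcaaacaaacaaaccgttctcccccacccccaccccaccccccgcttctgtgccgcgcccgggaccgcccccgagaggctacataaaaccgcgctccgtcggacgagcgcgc
TGACGTCA was found in 1.55% of all promoters and CAGACA in 17.1%, on either strand. Dusp1 was measured at 1 h and 10 h only, and a rise that had passed within the first hour could not be seen.

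The log2 level of Dusp1 was 8.87, 8.97 and 8.96 untreated, 9.34, 8.51 and 8.82 at 1 h and 9.01, 9.38 and 9.10 at 10 h in wild type. The corresponding values in knock-out-labelled cells were 9.24, 9.25 and 8.60 untreated, 8.72, 8.71 and 8.67 at 1 h and 8.96, 8.74 and 8.84 at 10 h. The groups overlapped in most pairs, the 1 h arrays of wild type spanned nearly the whole range of the gene, and the knock-out-labelled arrays at 1 h lay close together. No time comparison was called, with a 10 h change of 0.23 ± 0.19 in wild type (95% confidence interval -0.17 to 0.62) and -0.19 ± 0.19 in knock-out-labelled cells (95% confidence interval -0.58 to 0.21). These intervals do not reach the changes of Dusp4, Dusp5 or Dusp6. The wild-type difference between 1 h and 10 h was 0.27 ± 0.19 (limma adjusted p = 0.292), and without wild-type embryo 1 it was called (0.57, adjusted p = 0.0447), with -0.03 to 0.57 over the 16 alternatives.

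Dusp8 and Dusp10 are phosphatases that prefer JNK and p38 to ERK. The log2 level of Dusp8 was 6.84, 6.76 and 6.95 untreated, 6.99, 6.74 and 7.12 at 1 h and 7.14, 7.49 and 7.19 at 10 h in wild type, and 6.94, 7.01 and 7.04 untreated, 7.27, 6.95 and 6.75 at 1 h and 7.61, 7.50 and 7.37 at 10 h in knock-out-labelled cells. In both genotypes the 10 h arrays lay above all untreated arrays, by less than 1 log2 unit. Dusp8 rose at 10 h by 0.43 ± 0.13 in wild type (limma adjusted p = 0.0216) and by 0.49 ± 0.13 in knock-out-labelled cells (limma adjusted p = 0.00873). Both calls depended on single embryos. The adjusted p was 0.0597 without wild-type embryo 1, 0.188 without wild-type embryo 2, where the rise was 0.27, and 0.0616 and 0.0553 without knock-out-labelled embryos 1 and 2 (limma).

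The log2 level of Dusp10 was 6.05, 6.44 and 6.19 untreated, 6.05, 6.12 and 6.03 at 1 h and 6.44, 6.68 and 6.30 at 10 h in wild type. The knock-out-labelled cells gave 6.42, 6.39 and 6.14 untreated, 6.04, 6.17 and 6.15 at 1 h and 6.52, 6.67 and 6.53 at 10 h. The 1 h arrays were the lowest of each genotype on average, and the 10 h arrays lay above all 1 h arrays. Between 1 h and 10 h Dusp10 rose by 0.40 ± 0.12 in wild type (limma adjusted p = 0.0136) and by 0.46 ± 0.12 in knock-out-labelled cells (limma adjusted p = 0.00605). The wild-type call was lost without embryo 1 (limma adjusted p = 0.052) or embryo 2 (0.0559), and the other without knock-out-labelled embryo 2 (0.0501). With the probe sets of Dusp10 averaged the wild-type difference was 0.18 and not called (adjusted p = 0.0627), and the dimmer one, 1417163_at, differed by -0.03 ± 0.09 in wild type (limma adjusted p = 0.823) and 0.26 ± 0.09 in knock-out-labelled cells (limma adjusted p = 0.0443). Against untreated cells the 10 h differences of 0.24 ± 0.12 and 0.26 ± 0.12 were not called (limma adjusted p = 0.113 and 0.0947). With the embryo as a block the second of these was called (limma adjusted p = 0.0446), as it was without wild-type embryo 2 (0.0429).

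Spry2 is a membrane-associated inhibitor of signalling from growth factor receptors to ERK. Its log2 level was 7.96, 7.66 and 7.74 untreated, 7.53, 7.27 and 7.10 at 1 h and 6.72, 6.60 and 6.68 at 10 h in wild type. Levels in knock-out-labelled cells were 7.55, 8.21 and 7.42 untreated, 6.93, 7.21 and 7.30 at 1 h and 6.39, 6.55 and 6.64 at 10 h. The level stepped down at each time in both genotypes, and neither the 1 h nor the 10 h arrays overlapped the untreated arrays. At 10 h Spry2 had fallen by 1.12 ± 0.17 in wild type (limma adjusted p = 1.3e-04) and by 1.20 ± 0.17 in knock-out-labelled cells (limma adjusted p = 6.2e-05), while Dusp4, Dusp5 and Dusp6 had risen on the same arrays. At 1 h the differences were -0.49 ± 0.17 and -0.58 ± 0.17, lower in 6 of 6 embryos, and were not called within a genotype (limma adjusted p = 0.486 and 0.346). Between 1 h and 10 h it fell by a further 0.64 ± 0.17 in wild type (limma adjusted p = 0.00958) and 0.62 ± 0.17 in knock-out-labelled cells (limma adjusted p = 0.0112). That wild-type call was lost without embryo 1 (0.0756) or embryo 2 (0.0671).

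The log2 level of Spry1, another Sprouty inhibitor of receptor tyrosine kinase signalling, was 8.94, 8.89 and 8.88 untreated, 8.85, 8.62 and 8.74 at 1 h and 8.92, 9.25 and 8.88 at 10 h in wild type. Knock-out-labelled embryos 1, 2 and 3 gave 8.72, 8.64 and 8.39 untreated, 8.70, 8.30 and 8.54 at 1 h and 8.58, 8.99 and 9.22 at 10 h. Its arrays stayed within 1 log2 unit of each other throughout, and the untreated and 10 h arrays overlapped in both genotypes. Against untreated cells the 10 h change was 0.11 ± 0.15 in wild type and 0.35 ± 0.15 in knock-out-labelled cells, not called (limma adjusted p = 0.592 and 0.092). The second was called without knock-out-labelled embryo 1 (0.59, adjusted p = 0.0125), and was 0.10 without knock-out-labelled embryo 3 (adjusted p = 0.717). The 10 h minus 1 h difference in knock-out-labelled cells was 0.41 ± 0.15 (limma adjusted p = 0.0462). That call was lost with the embryo as a block (adjusted p = 0.0682) and without wild-type embryo 1 (0.07) or 3 (0.0756) or knock-out-labelled embryo 2 (0.323) or 3 (0.26), and in 8 of 16 alternatives in all.

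Spry4 is a further member of the Sprouty family, and its brightest probe set was dim, near the middle of all probe sets (49th percentile by mean level). The log2 level was 4.64, 4.58 and 4.45 untreated, 4.85, 4.48 and 4.71 at 1 h and 4.68, 4.80 and 4.98 at 10 h in wild type. The corresponding values in knock-out-labelled cells were 4.62, 4.56 and 4.58 untreated, 4.60, 4.34 and 4.56 at 1 h and 5.19, 5.19 and 5.19 at 10 h. The 10 h arrays of both genotypes lay above their untreated arrays, and the 3 knock-out-labelled arrays at 10 h were nearly equal. Spry4 rose by 0.60 ± 0.10 in knock-out-labelled cells at 10 h (limma adjusted p = 3.3e-04), while the wild-type difference of 0.26 ± 0.10 was not called (limma adjusted p = 0.0624). Without wild-type embryo 1 that difference was called (0.38, adjusted p = 0.0329), and without wild-type embryo 3 it was 0.13 (adjusted p = 0.49). It was also called with the embryo as a random block (adjusted p = 0.0432). Averaging the 4 Spry4 probe sets called it too. One of these, 1445669_at, exceeded the filter's level on 10 h arrays only, so that call is no support for a rise.

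Spred1 encodes a membrane protein that recruits neurofibromin to switch RAS off. Its log2 level was 9.12, 8.95 and 8.99 untreated, 9.08, 9.26 and 8.93 at 1 h and 8.77, 8.78 and 8.59 at 10 h in wild type. The knock-out-labelled cells gave 8.93, 8.86 and 8.86 untreated, 8.67, 8.81 and 8.96 at 1 h and 8.73, 8.32 and 8.77 at 10 h. The 10 h arrays lay below the untreated arrays in both genotypes, by a small margin. The 10 h difference from untreated cells was -0.31 ± 0.12 in wild type and -0.27 ± 0.12 in knock-out-labelled cells, and was not called (limma adjusted p = 0.0607 and 0.0908). With the embryo as a block the wild-type value was called (adjusted p = 0.0435), as it was in 4 of 16 alternatives in all. Between 1 h and 10 h Spred1 fell by 0.37 ± 0.12 in wild type (limma adjusted p = 0.0248), a call lost without any one of the 3 wild-type embryos (0.0774 to 0.137), and the knock-out-labelled difference was -0.21 ± 0.12 (limma adjusted p = 0.206).

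**Figure D2:**
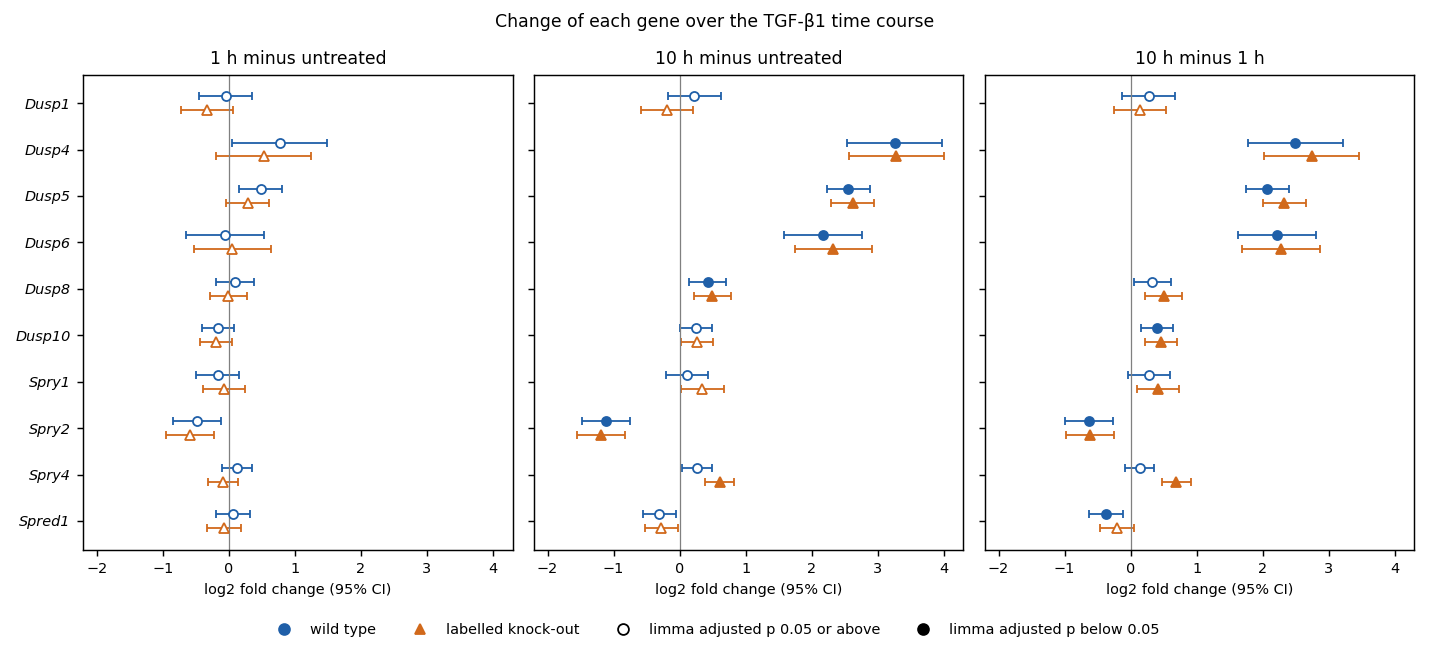
Change in log2 level of the 10 genes between conditions (horizontal axis) in wild-type and knock-out-labelled cells, with points for the limma estimate from 3 embryos per group and bars for its 95% confidence interval. Dusp4, Dusp5 and Dusp6 stand above 2 at 10 h in both genotypes and near 0 to 0.77 at 1 h, and Spry2 stands below 0 at both times.

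Counts over the 10 genes were read against the share of all 13679 tested genes that was called. At 1 h, none of the 10 was called in either genotype, where 0.504% of all genes were called higher and 0.0804% lower in wild type, and 0.417% and 0.0731% in knock-out-labelled cells. At an unadjusted p under 0.05 there were 3 in wild type (Dusp4, Dusp5 and Spry2) and 1 in knock-out-labelled cells (Spry2), from limma. Of all 13679 tested genes, 940 in wild type and 512 in knock-out-labelled cells passed the same cut. At 10 h against untreated cells, 4 rose and 1 fell in wild type, a call for 5 of 10 against 33.7% of all genes (14.9% higher and 18.8% lower). In knock-out-labelled cells 5 rose and 1 fell, 6 of 10 against 34.7% (13.9% higher and 20.7% lower). Among only 10 genes, 1 fall is near the background share. The share of rises was above its background, in genes chosen with earlier results of these data known.

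Between 1 h and 10 h, 4 rose and 2 fell in wild type, against 33.3% called among all genes (15.3% higher and 18% lower). In knock-out-labelled cells 7 rose and 1 fell, against 33.4% (13.7% higher and 19.7% lower). The median 10 h change over the 10 genes was 0.25 in wild type and 0.42 in knock-out-labelled cells, beside 0.01 and -0.03 over all tested genes. Arrays of the groups did not overlap for 8 of 10 genes at 10 h in either genotype, whether set against untreated or 1 h cells, where the share of all genes was 44.3% and 45.1% against untreated and 44.6% and 45.9% against 1 h cells in wild type and knock-out-labelled cells. At 1 h against untreated cells this held for 3 of 10 in wild type (15.5% of all genes) and 3 of 10 in knock-out-labelled cells (8.42%). The 1 h and 10 h comparisons share their untreated arrays and are set side by side only.

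The mean of both genotypes was also tested, a comparison added after the data were seen. With the embryo as a block, Spry2 fell by 0.53 ± 0.10 at 1 h (limma adjusted p = 0.0168), the only 1 of the 10 called, where 1.71% of all genes were called. Without the block it was called as well (adjusted p = 0.0387, 1.29% of all genes). Dusp5 stood 0.39 ± 0.09 higher at 1 h and just missed the threshold with the block (adjusted p = 0.0502), and Dusp4 stood 0.65 ± 0.23 higher (adjusted p = 0.296). At 10 h this test called 8 of 10, where 53.6% of all genes were called with the block and 48.9% without it. Dusp4, Dusp5, Dusp6, Dusp8, Dusp10 and Spry4 rose, Spry2 and Spred1 fell, and Dusp1 and Spry1 were not called. Dusp10 and Spred1, which had no call against untreated cells within a genotype without the block, changed by 0.25 ± 0.07 and -0.29 ± 0.08 in this average with the block.

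The genotypes were compared in each condition, to see whether the labelled loss of NFI-C shifted the feedback genes. For each of the 10 genes the 95% confidence interval of the difference lay within a 2-fold change in either direction in each of the 3 conditions. The largest differences were 0.32 in untreated cells (Spry1, lower in knock-out-labelled), 0.27 at 1 h (Spred1, lower) and 0.37 at 10 h (Spry4, higher). None was called in any condition, and the same test called 0% of all genes. At an unadjusted p under 0.05 the limma test listed Spred1 at 1 h and Spry4 at 10 h, with an adjusted p of 0.795 and 0.682. Of all 13679 tested genes, 846 passed the same cut at 1 h and 721 at 10 h. Arrays of the genotypes did not overlap for Spry1 and Spred1 in untreated cells (7.93% of all genes) and for Dusp1 and Spry4 at 10 h (7.6%). At 1 h no member was free of overlap (14.3% of all genes).

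The difference between the genotypes in the response to TGF-β1 was tested as an interaction. None of the 10 genes was called at 1 h or 10 h, beside 0% of all genes. Only Spry4 at 10 h (difference 0.34 ± 0.15, limma adjusted p = 0.999) had an unadjusted p under 0.05, as had 305 of all 13679 genes then. Its call in knock-out-labelled cells beside the missing call in wild type is therefore not a shown difference of genotypes. For 9 of 10 genes the interval of each interaction lay within a 2-fold change, and for Dusp4, the most variable of the 10, it was wider, with estimates of -0.24 ± 0.48 at 1 h and 0.02 ± 0.48 at 10 h. Embryo means over the 3 conditions gave no call either, beside 0 of all 13679 tested genes. In that test Spry1 stood 0.21 ± 0.06 lower in knock-out-labelled embryos, with a limma adjusted p of 0.833. It was the only 1 of the 10 with an unadjusted p under 0.05, a cut that 659 of all 13679 genes passed.

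**Figure D3:**
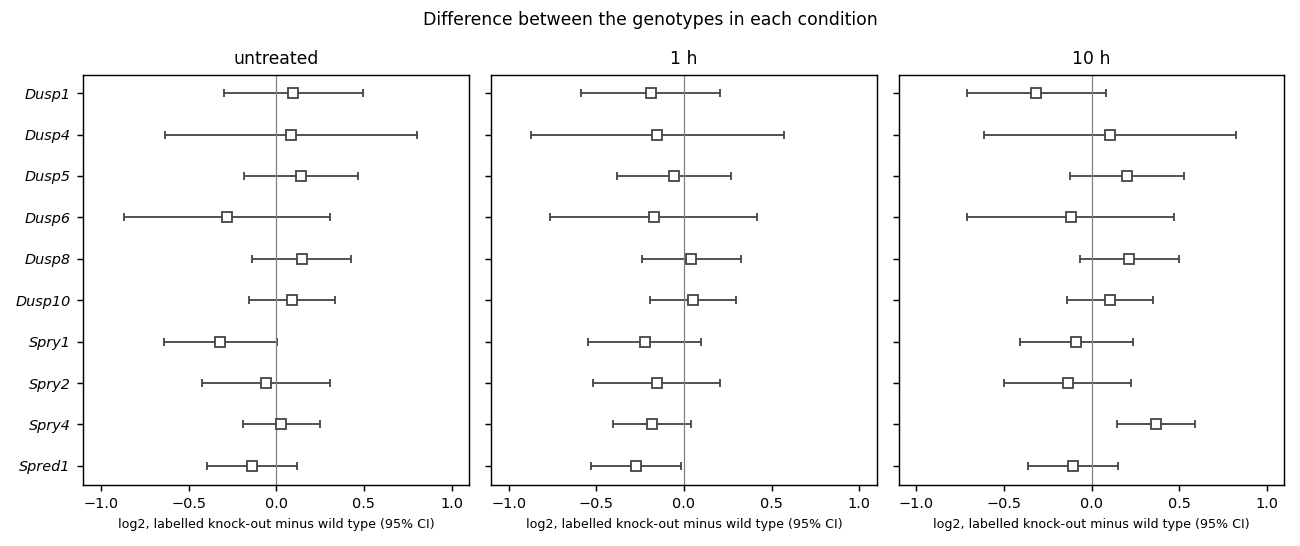
Difference in log2 level between knock-out-labelled and wild-type cells (horizontal axis) for the 10 genes in untreated cells and after 1 h and 10 h of TGF-β1. Points are limma estimates from 3 embryos per genotype and bars are 95% confidence intervals. All intervals lie between -1 and 1 and none of the differences was called.

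Probe sets beyond the brightest were available for Dusp8, Dusp10, Spry2, Spry4 and Spred1. In all, 19 of the 24 probe sets passed the filter, 9 of them dimmer ones. In a test of 24691 probe sets, where 28.1% were called in wild type and 28.6% in knock-out-labelled cells at 10 h against untreated cells, the 8 dimmer ones other than 1445669_at gave 2 falls in wild type and 1 rise in knock-out-labelled cells. At 1 h none of the 8 was called, beside 0.486% and 0.421% of all probe sets. Between 1 h and 10 h they gave 4 falls in wild type (28% of all) and 1 rise and 1 fall in knock-out-labelled cells (27.7%).

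The dimmer Spry4 probe set 1445669_at exceeded the 40th percentile on 5 of the 18 arrays, all of them 10 h arrays. It passed the filter only through the time at which it was high, so its values are a description without a test. Its log2 level was 3.41, 3.45 and 3.61 in untreated and 4.24, 4.51 and 4.08 in 10 h wild-type cells, and 3.60, 3.87 and 3.78 and 4.90, 4.31 and 5.08 in knock-out-labelled cells. The 2 other Spry4 probe sets were too dim to be tested, and so was the dimmer Spry2 probe set, which lay below the filter on every array. With the 2 Spry2 probe sets averaged the fall at 10 h was 0.55 in wild type and 0.57 in knock-out-labelled cells.

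The 6 tested probe sets of Spred1 did not behave alike. In wild type all of them were lower at 10 h than in untreated cells, with 1423161_s_at and 1452911_at called (-0.45 ± 0.11 and -0.42 ± 0.12, limma adjusted p = 0.0047 and 0.0206). In knock-out-labelled cells the same 2 showed -0.13 ± 0.11 and -0.08 ± 0.12 and were not called, and 1423162_s_at and 1428777_at were on the positive side (0.28 ± 0.21 and 0.25 ± 0.16, limma adjusted p = 0.359 and 0.276). No Spred1 probe set was called for a genotype difference of the response. The dimmest Dusp8 probe set, 1418714_at, rose in knock-out-labelled cells (0.42 ± 0.13, limma adjusted p = 0.0263) and stood 0.30 ± 0.13 higher in wild type, not called. The other dimmer Dusp8 probe set, 1447346_s_at, was called in neither genotype. Its mean was 5.66 untreated and 5.98 at 10 h in wild type, and 5.66 and 5.88 in knock-out-labelled cells. The dimmer Dusp10 probe set, 1417163_at, differed by 0.13 ± 0.09 and 0.08 ± 0.09.

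**Figure D4:**
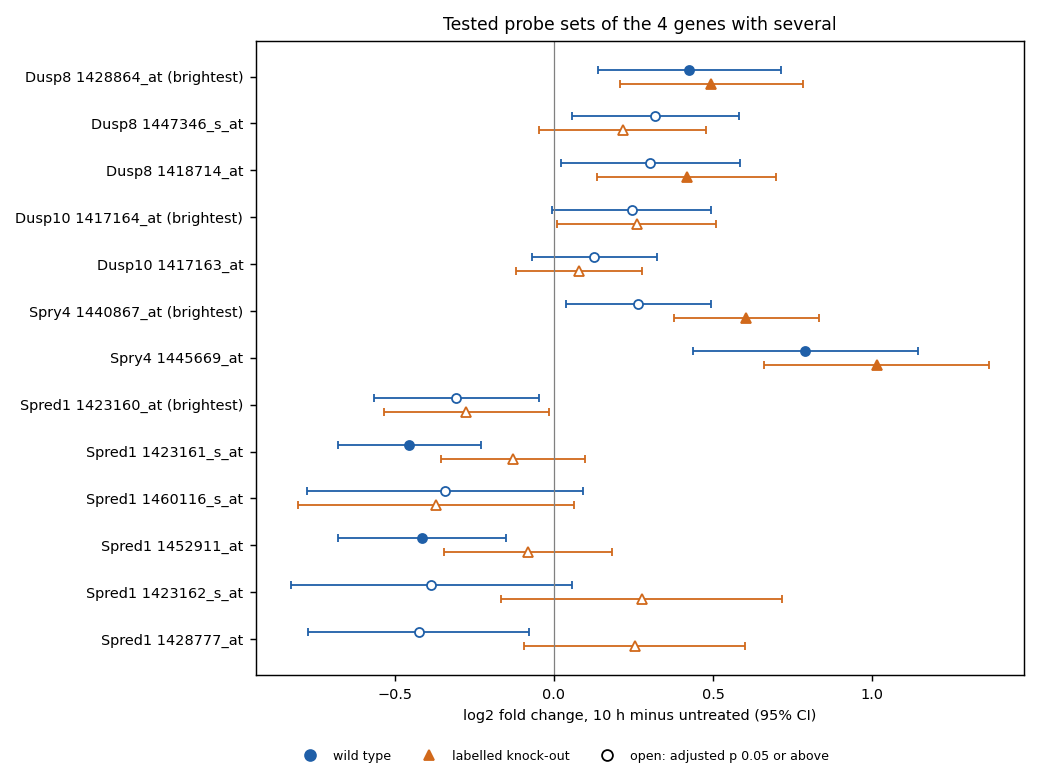
Change in log2 level from untreated cells to 10 h of TGF-β1 (horizontal axis) for the tested probe sets of Dusp8, Dusp10, Spry4 and Spred1, the genes with more than 1, in wild-type and knock-out-labelled cells. Points are limma estimates from 3 embryos per group and bars are 95% confidence intervals. The brightest Spry4 probe set lies above 0 in both genotypes, the dimmer one passed the filter only through 10 h arrays, and the 6 Spred1 probe sets lie below 0 in wild type and on both sides of 0 in knock-out-labelled cells.

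Over the 18 arrays the levels of Dusp4, Dusp5 and Dusp6 followed each other, with Pearson correlations of 0.94 to 0.95, and ran opposite to Spry2 (-0.75 to -0.86). Dusp1 followed none of these closely (0.11 to 0.36). The 18 arrays come from 6 embryos and 3 conditions, so the points share embryos and conditions and the values are a description without a test. The genes outside the group whose levels were most like Dusp5 were Mical2 (0.99), Tnfrsf12a (0.99) and Plaur (0.99). Those most like Dusp4 were Pdlim1 (0.98), Fbxo32 (0.97) and Eaf1 (0.97), and those most like Dusp6 were Ern1 (0.98), Plekhb2 (0.98) and Spire1 (0.98). For Spry2 they were Rfesd (0.92), Adamts1 (0.91) and Adm (0.91). The highest value was 0.81 for Dusp1 (Slc5a5), 0.89 for Dusp8 (Klc3), 0.90 for Dusp10 (Arl16), 0.80 for Spry1 (Cmpk1), 0.89 for Spry4 (Ppfibp2) and 0.94 for Spred1 (Rbm45).

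The rest of the pathway was read from 5 lists. Among 17 other dual-specificity phosphatases tested, none was called at 1 h in either genotype, beside 0.585% and 0.49% of all genes. At 10 h 3 rose and 1 fell in each, 4 of 17 against 33.7% and 34.7% of all genes. Dusp14, a small phosphatase without the MAP kinase binding domain, rose by 1.42 ± 0.26 in wild type (limma adjusted p = 5.6e-04) and 1.18 ± 0.26 in knock-out-labelled cells. Styx, a catalytically inactive relative, rose by 0.39 ± 0.12 and 0.36 ± 0.12, and Dusp19 fell by 0.53 ± 0.15 and 0.46 ± 0.15. Dusp15 rose in wild type (0.42 ± 0.14), where its value in knock-out-labelled cells was 0.30 ± 0.14. The median 10 h change of this list was 0.23 in wild type and 0.11 in knock-out-labelled cells, against 0.01 and -0.03 for all tested genes. The large rises of Dusp4, Dusp5 and Dusp6 were not matched in it.

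Of 18 other RAS pathway brakes tested, none was called at 1 h in either genotype, beside 0.585% and 0.49% of all genes. At 10 h 6 rose and 2 fell in wild type, and 7 rose and 3 fell in knock-out-labelled cells, 8 and 10 of 18 against 33.7% and 34.7% of all genes, with medians of 0.25 and 0.29. Spred2, the close relative of Spred1, rose by 1.26 ± 0.12 in wild type (limma adjusted p = 1.0e-06) and 1.34 ± 0.12 in knock-out-labelled cells, while Spred1 did not rise in either. Rasa2 and Rasal2, which speed up GTP hydrolysis by RAS, rose by 0.95 ± 0.15 and 0.66 ± 0.12 in wild type and by 1.24 ± 0.15 and 0.75 ± 0.12 in knock-out-labelled cells. Il17rd, an inhibitor of FGF signalling, fell by 0.86 ± 0.19 and 0.83 ± 0.19.

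Of 40 tested genes listed as kinases and adaptors of the MAP kinase cascades, 1 rose at 1 h in wild type, beside 0.585% of all genes called. This was Map3k14 (0.70 ± 0.11, limma adjusted p = 0.00287). In knock-out-labelled cells none was called, beside 0.49% of all genes (0.40 ± 0.11 for Map3k14). At 10 h 9 rose and 4 fell in wild type, and 10 rose and 5 fell in knock-out-labelled cells, with medians of 0.00 and 0.05. Map2k1, a kinase that activates ERK, rose by 0.52 ± 0.12 and 0.59 ± 0.12. The kinases that activate p38 moved apart, with Map2k3 higher by 0.66 ± 0.12 and 0.83 ± 0.12 and Map2k6 lower by 0.92 ± 0.20 and 1.06 ± 0.20. Gab1, an adaptor between receptors and RAS, fell by 1.17 ± 0.19 and 1.09 ± 0.19. The share called in this list at 10 h, 13 and 15 of 40, was near the background of 33.7% and 34.7%.

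Of 29 ERK-responsive transcription factors and early genes, 7 rose and none fell at 1 h in wild type, and 5 rose in knock-out-labelled cells, at a time when none of the 10 feedback genes was called and 0.585% and 0.49% of all genes were. Egr2 rose by 2.54 ± 0.17 and 2.33 ± 0.17, Klf10 by 2.09 ± 0.14 and 1.81 ± 0.14, Junb by 1.78 ± 0.24 and 1.72 ± 0.24 and Ier5 by 1.31 ± 0.11 and 1.17 ± 0.11. Klf10 is also a known direct target of TGF-β. At 10 h 18 rose and 2 fell in wild type, and 21 rose in knock-out-labelled cells, 20 and 21 of 29 against 33.7% and 34.7% of all genes, with medians of 0.68 and 0.93. Egr2 was then 3.56 ± 0.17 and 3.79 ± 0.17 higher than in untreated cells, Fosl1 1.83 ± 0.17 and 1.59 ± 0.17, and Maff 1.73 ± 0.21 and 1.89 ± 0.21.

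Of 30 receptor tyrosine kinases and ligands, 3 rose at 1 h in each genotype, beside 0.585% and 0.49% of all genes called. All 3 were ligands. Hbegf, a ligand of the EGF receptor, rose by 2.09 ± 0.13 and 2.08 ± 0.13 at 1 h and by 3.61 ± 0.13 and 3.61 ± 0.13 at 10 h. Fgf21 rose by 1.00 ± 0.15 and 0.75 ± 0.15 at 1 h and by 4.05 ± 0.15 and 3.78 ± 0.15 at 10 h, and Fgf18 by 1.42 ± 0.22 and 1.74 ± 0.22 at 1 h. At 10 h 9 rose and 8 fell in wild type, and 8 rose and 5 fell in knock-out-labelled cells, 17 and 13 of 30 against 33.7% and 34.7% of all genes, so the medians of 0.14 and 0.13 joined opposite changes. Pdgfc rose by 1.37 ± 0.11 and 1.36 ± 0.11, whereas Met, the receptor of hepatocyte growth factor, fell by 1.71 ± 0.16 and 1.38 ± 0.16. Egfr, Fgfr2 and Pdgfra, named after their values were seen, also fell in both genotypes. Receptors did not all fall, as Pdgfrb stood 0.28 ± 0.12 and 0.22 ± 0.12 higher at 10 h, not called.

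**Figure D5:**
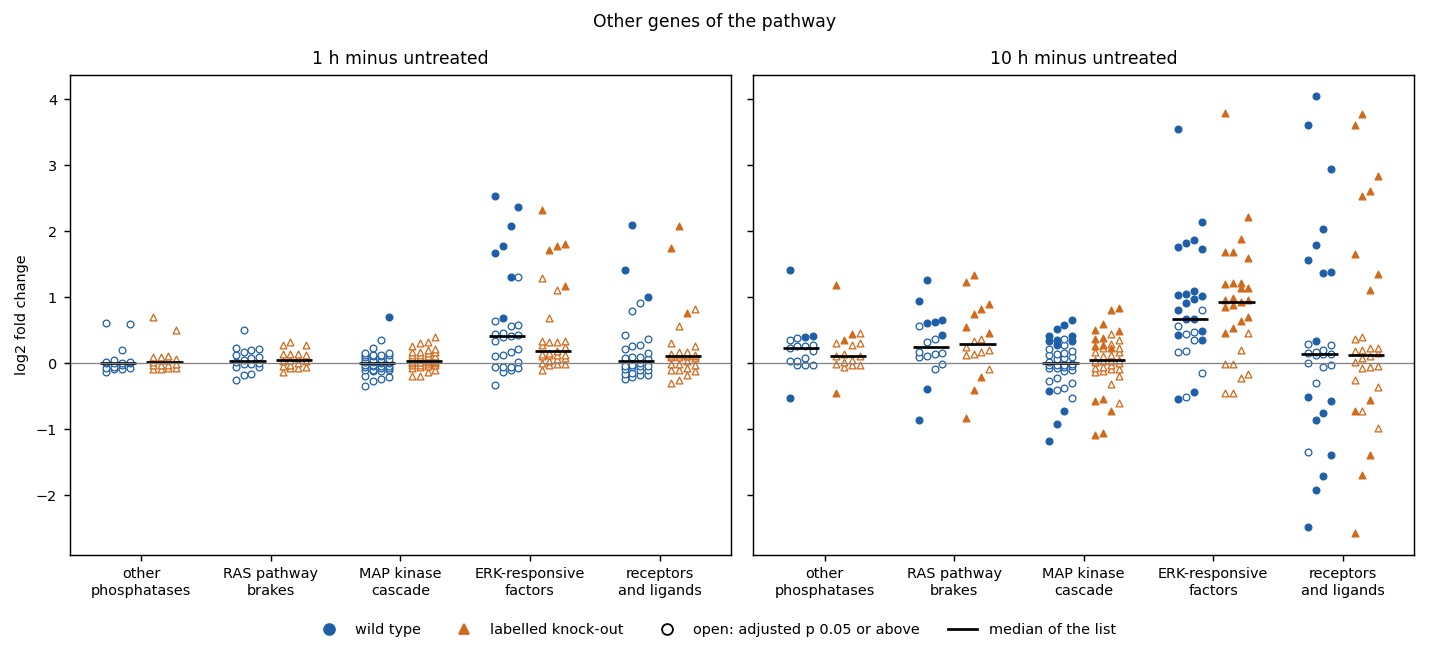
Change in log2 level from untreated cells to 1 h or 10 h of TGF-β1 for the tested genes of each pathway list in wild-type and knock-out-labelled cells. Points are single genes, filled where called by limma over all tested genes, and the bars are list medians. At 10 h the ERK-responsive genes lie mostly above 0, with medians of 0.68 and 0.93, and the receptors and ligands spread to both sides.

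A further set of motifs was searched on both strands of the 8 promoters of the group that were read. These were the AP-1 letters TGACTCA (4.46% of all promoters), the ETS letters CCGGAAGT (2.88%), the SMAD palindrome GTCTAGAC (0.167%) and the nuclear factor I palindrome (0.0365%). None was present in the promoters of Dusp1, Dusp5, Dusp6, Dusp8, Dusp10, Spry1, Spry2 or Spred1. For Dusp4 and Spry4 no promoter sequence was at hand, so neither was searched. The promoter of Dusp8, on the minus strand of chr7:142095285-142095534 and within the outermost RefSeq limits of the gene, held TGACGTCA at 107 to 100 and again at 63 to 56 bases before the start. The CArG box occurred only in the promoter of Dusp5 among these 8, and CAGACA only in that of Dusp1.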

How the data were processed

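Total RNA of 18 cultures was hybridised to Affymetrix arrays. The deposited values are log2 levels, 1 per probe set and array, which the authors computed by RMA, as the submitters' processing notes say without a version. This method subtracts background, equalises the arrays and summarises the probes of a set, so a level depends on all arrays. The values were used as deposited. Of 45101 probe sets, 34958 had a single symbol, 932 had several and 9211 were unnamed in the array annotation. Each gene was read from its brightest single-symbol probe set.

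A mean for each of the 6 groups was fitted with limma 3.58.1 (R 4.3.3, 12 residual degrees of freedom, two-sided, Benjamini-Hochberg over 13679 genes above the array's 40th percentile on at least 3 arrays). The fit was tested on simulated data. The number of arrays limits the precision: the median 95% confidence interval of a group difference reached 0.27 to each side. Alternatives were 16 other settings fixed with the design and 2 added after seeing the data. The same number marks the same embryo within a genotype per the labels, so the embryo pairs untreated and treated arrays. Deviations of paired arrays correlated at 0.59 to 0.76 between untreated and 1 h, and at 0.28 to 0.49 between untreated and 10 h except for wild-type embryos 2 and 3 (-0.06 and -0.20). The pairing of the wild-type 10 h arrays, and blocked values there, thus rest on the labels alone. The genes described, the pathway lists, the marker lists and the rule for named genes (all 10 genes, up to 4 genes per list with the smallest adjusted p in wild type at each time, and the 3 most alike genes) were chosen with earlier results of these data known. Promoters are RefSeq sequences (GRCm38.p6), cut to the 250 bases before the start.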

Additional observations from a re-analysis of the deposited data

How the results depend on the processing

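The 10 h calls of Dusp4, Dusp5 and Dusp6 against untreated and 1 h cells held in both genotypes under all 16 alternatives. So did those of Spry2 against untreated cells. No value of the 10 genes called in the main fit changed its sign, and none called in an alternative had the opposite sign to the main fit. The Dusp1 difference between 1 h and 10 h in wild type, called in 1 alternative only, ranged from -0.03 to 0.57. Counts of called genes were less stable. Leaving out 1 embryo at a time gave 4 to 6 calls for 10 h against untreated in wild type (5 with all) and 5 to 7 in knock-out-labelled cells (6 with all). Against 1 h it gave 3 to 6 in wild type (6 with all), where 3 was without embryo 2, and 5 to 8 in knock-out-labelled cells (8 with all), where 5 was without embryo 2. Averaging both genotypes gave 1 call at 1 h in place of 0 in either genotype and 8 at 10 h in place of 5 in wild type, with and without the embryo as a replicate block. With the embryo as a fixed block in the paired fit, the counts were 6 and 7 against untreated and 6 and 7 against 1 h in wild type and knock-out-labelled cells, and 0 at 1 h. This fixed block changed the call of Spred1, Dusp10 and Spry1 named above and no other. Normalizing again by quantiles or centring moved the median change of all genes by at most 0.03. The brightest Spry4 probe set lay at the 49th percentile by mean level, so its signal over background was small. The causes of these shifts were not tested.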
